A study of Mus musculus with 2 samples.

Results

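C1q-expressing macrophages of the mouse uterus were described in 2 single-cell libraries. A cell barcode was counted as a member when 500 or more genes were detected and mitochondrial transcripts made up no more than 20% of its UMIs (unique molecular identifiers, each standing for 1 captured transcript). It also had to hold at least 5 UMIs over C1qa, C1qb and C1qc, to show at least 2 of Adgre1, Csf1r, Ms4a7, C3ar1 and Pf4, and to lack Epcam and Cd3e. The rule selects on measured values of these 10 genes, so their levels are given below as a description only. It found 223 macrophages among 3653 control cells and 120 among 4950 cKO cells, 343 of 8603 in all. The control mice carried floxed Prickle1 alleles (Prickle1 f/f), and the conditional knockout mice (cKO) carried the same floxed alleles with Ltf-cre, given in the series' design text as Ltf-iCre. Both groups were females aged 6 months, and each library was made from the pooled uteri of 3 mice. A genotype entry in the labels calls both groups C57BL/6J wild-type, which differs from their titles, and the titles were followed here. Ltf, the gene of lactoferrin, is transcribed in uterine epithelium. Whether this Cre acted in the macrophages was not tested. There was 1 library per group: genotype, pool and library preparation cannot be told apart, cells are not replicates, and no p-value is given. Intervals in parentheses are exact 95% intervals and cover counting error only.

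Tissue macrophages engulf dying cells and debris, present antigen on MHC class II molecules and secrete cytokines, chemokines and complement proteins. C1q, the first component of the classical complement pathway, is built from the chains encoded by C1qa, C1qb and C1qc and is made mainly by macrophages and related myeloid cells. It binds antibody complexes and dying cells and marks them for uptake. In the uterus macrophages lie in the stroma and muscle wall, where their numbers and state follow the ovarian cycle, pregnancy and tissue repair.

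Prickle1, the targeted gene, had 1 UMI in control and 6 in cKO macrophages, and Ltf had 14 and 0. Both counts are too low to check the labels in these cells. Barcodes with at most 100 UMIs, taken as cell-free RNA, held Ltf at 612 and 7.0 CPM, where CPM is the count per 1000000 UMIs. The members held 2353886 UMIs in control and 1543365 in cKO. Their depth ran from 930 to 50146 UMIs per cell (median 9430) in control and from 1032 to 102455 (median 11048) in cKO, with medians of 2377 and 2811 genes. No barcode was a member in both libraries.

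The label was checked against markers that the rule did not use. The 19 such macrophage genes, among them Cd68, Mertk, Lyz2 and Ctss, summed to 17175 CPM in control and 16407 in cKO, against 1385 and 1566 CPM in cell-free RNA, and none of them was at 0. Markers of monocytes stood at 209 and 196 CPM, against 471 and 483 CPM in cell-free RNA, and of neutrophils at 37.8 and 40.8 CPM. The 9 monocyte markers did not move together. Vcan had a log2 ratio (cKO to control) of 1.99, while 5 markers were at 0 in cKO and 1 in control. The 11 markers of T or NK cells summed to 265 and 305 CPM, against 98.9 and 233 CPM in cell-free RNA. At least 3 of these UMIs were found in 42 control and 33 cKO members and at least 20 in 6 and 7, although Cd3d, Cd3g, Cd8a, Klrb1c and Ncr1 were at 0 in both libraries and Cd3e by the rule. Some members also carried RNA of other cells. The 6 stromal fibroblast markers summed to 1246 CPM in control and 2052 in cKO, and 12 cells in each library held 95.3% and 98.1% of those UMIs. The 6 endothelial markers summed to 22.5 and 293 CPM, and 3 cKO cells held 87.2% of the latter, and the dendritic markers summed to 174 and 480.1 CPM, with 80.6% of the latter held by 4 cells. Epithelial markers stood at 40.4 and 5.83 CPM. The cKO cell with the most UMIs (102455, 6.64% of all cKO macrophage UMIs) had 10 C1q UMIs beside 174 of Prox1, 106 of Lyve1 and 74 of Cdh5, genes of lymphatic and other endothelium, and 143 of Ccl22. Calls that were lost without such cells are named below.

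C1qb and C1qc are neighbours on mouse chromosome 4. The 250 bases before each start site are shown because the members are defined by these transcripts. Both windows hold the sequence AGGAAGT, the core recognised by ETS factors, the family of the myeloid regulator PU.1, read here from the opposite strand as ACTTCCT. Capitals mark that match. Its nearest base lies 47 bases before the start of C1qb and 189 before that of C1qc. The same letters, searched on both strands, occur in 2377 of 27025 genes' windows of this length (8.80%), so a match alone is a description and not evidence of binding. The windows, from RefSeq on GRCm38.p6, are chr4:136886201-136886450, minus strand, for C1qb and chr4:136892915-136893164, minus strand, for C1qc.
C1qb: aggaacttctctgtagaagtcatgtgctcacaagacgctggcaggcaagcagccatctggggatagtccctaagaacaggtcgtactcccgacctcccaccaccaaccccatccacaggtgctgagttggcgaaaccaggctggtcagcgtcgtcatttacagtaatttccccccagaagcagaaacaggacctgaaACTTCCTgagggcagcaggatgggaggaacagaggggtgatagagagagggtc
C1qc: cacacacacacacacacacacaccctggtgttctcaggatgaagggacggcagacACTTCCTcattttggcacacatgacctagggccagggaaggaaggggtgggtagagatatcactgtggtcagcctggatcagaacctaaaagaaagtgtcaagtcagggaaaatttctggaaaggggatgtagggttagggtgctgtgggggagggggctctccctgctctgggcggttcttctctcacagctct

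The sum of the 3 chains ran from 5 to 195 (median 22) UMIs per cell in control and from 5 to 205 (median 34) in cKO. All 3 chains were detected together in 201 control macrophages (90.1%) and 116 cKO macrophages (96.7%). Summed over members, C1qa stood at 1122 CPM in control and 1511 in cKO, C1qb at 1013 and 928 CPM and C1qc at 713 and 936 CPM. The members held 93.5% and 92.1% of all cell UMIs of C1qa in the respective libraries. Of the other genes in the rule, Pf4, which encodes the chemokine platelet factor 4, stood at 2734 and 2403 CPM and ran from 0 to 286 (median 7) UMIs per cell in control and 0 to 187 (median 9) in cKO. C3ar1, the receptor of complement fragment C3a, stood at 873 and 724 CPM, and Csf1r, the receptor for the growth factor on which macrophages depend, at 386 and 304 CPM. Ms4a7 stood at 713 and 999.8 CPM and Adgre1, the gene of the F4/80 antigen, at 441 and 693 CPM. All 5 of these genes were detected in 129 control and 58 cKO macrophages. Near the threshold, 17 control and 7 cKO members had 5 or 6 C1q UMIs, with median depths of 2171 and 4689 UMIs, and 19 and 9 cells with 3 or 4 C1q UMIs but otherwise fitting the rule lay just outside it, with medians of 3401 and 5909.

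**Figure D1:**
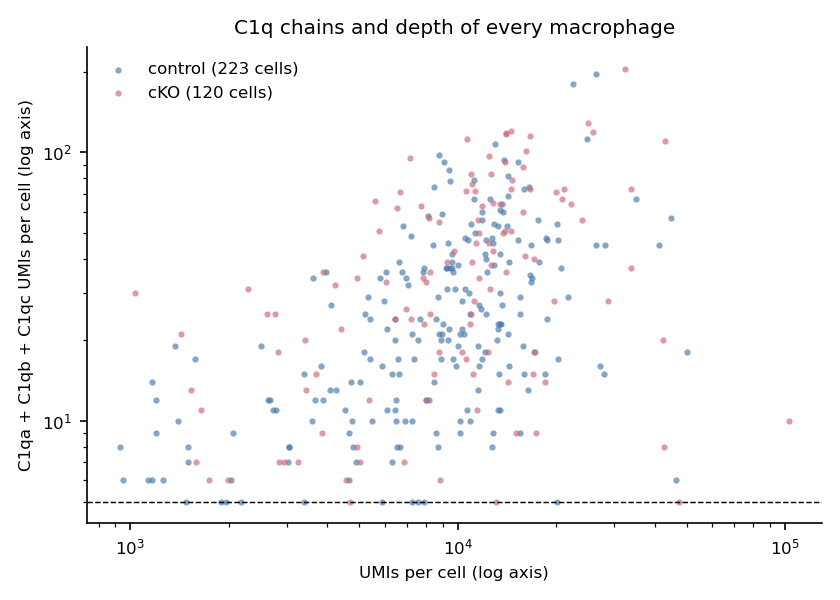
C1q UMIs (C1qa, C1qb and C1qc together) of each macrophage against its total UMIs, both on log axes, with control and cKO members as points and the rule's threshold of 5 C1q UMIs as a line. The C1q sum spans 5 to 195 UMIs in control and 5 to 205 in cKO, and the cKO cell at 102455 UMIs stands apart with 10 C1q UMIs.

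Macrophages were a smaller share of the cKO cells. They made up 6.1% (5.35 to 6.93) of all control cells and 2.42% (2.01 to 2.89) of all cKO cells, 2.52-fold less. The 2 libraries differed in their epithelial cells, with 2605 of 3653 control and 4767 of 4950 cKO cells free of Epcam, the gene of an epithelial adhesion molecule. Among those Epcam-free cells macrophages were 8.56% (7.51 to 9.7) in control and 2.52% (2.09 to 3.0) in cKO, 3.4-fold less. With a C1q minimum of 20 UMIs in place of 5, the members were 3.37% of control and 1.68% of cKO cells.

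To compare the macrophages of the 2 groups, UMIs of all members were summed per library and scaled to CPM of their total. Of 6737 genes with at least 50 UMIs over both libraries, 441 (6.55%) were at least 2-fold higher in cKO and 168 (2.49%) at least 2-fold lower, each with an interval that leaves out a ratio of 1. Genes past these limits are called higher or lower below, and "rose" and "fell" are used only of them. The median log2 ratio of all tested genes was 0.17. TMM scaling, which sets most genes to no change, lowered all log2 ratios by 0.22 and turned the split of 72.4% higher among the called genes into 47.8% (260 higher and 284 lower), so the balance of rises and falls depends on the scaling. The calls also depend on the members with UMIs of other types' markers. These markers include Il7r of the T or NK list, which was found in macrophages of both libraries. Members left out for Il7r need not hold RNA of another cell. Without the members that had at least 20 UMIs of another type's markers, which left 200 control and 96 cKO macrophages, 342 genes were called higher and 191 lower, and of the original calls 165 and 114 stayed. Every gene named in the next 2 paragraphs was called in that setting too.

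The rises with the strongest counting support, and not resting on 1 cell or on cell-free RNA, are given first. Il1b, the gene of interleukin-1 beta, stood at 909 CPM in control and 2677 in cKO, 2.94-fold (2.79 to 3.1) higher, and was detected in 33.6% and 60% of the members. Cybb, the catalytic subunit of the phagocyte NADPH oxidase, stood at 367 and 1055 CPM (2.87-fold, 2.64 to 3.12). Tnfaip2, a gene induced by tumour necrosis factor, stood at 454 and 1141 CPM (2.51-fold, 2.33 to 2.71). All 3 were present in most cKO macrophages. Siglece, an inhibitory receptor for sialic acid, rose from 10.6 to 88.8 CPM, 8.36-fold (5.43 to 13.4), and from 7.62% to 30.8% of the cells. Clec4a1, a C-type lectin receptor, stood at 123 and 409 CPM (3.32-fold, 2.89 to 3.83), and Fpr1, a receptor for bacterial formyl peptides, at 11.5 and 49.9 CPM (4.35-fold, 2.77 to 7.02). Fpr1 was detected in few cells, 4.93% and 13.3% of members. The signalling adaptor Stap1 stood at 119 and 375 CPM (3.15-fold, 2.73 to 3.65) and Fam49a at 37 and 152 CPM (4.12-fold, 3.21 to 5.33). Lpcat1, an enzyme of phospholipid remodelling, stood at 12.7 and 54.4 CPM (4.27-fold, 2.78 to 6.71), and Limd2 at 13.6 and 53.1 CPM (3.91-fold, 2.57 to 6.08). The junction molecule F11r (12.3 and 83.6 CPM) and the protease inhibitor Spint1 (7.65 and 35 CPM), both also expressed by epithelium, rose 6.78-fold (4.51 to 10.5) and 4.58-fold (2.64 to 8.29). In cell-free RNA these last 2 ran the other way, at 95 and 21.9 CPM for F11r and 81.8 and 10.9 CPM for Spint1.

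The falls chosen in the same way included Ifit1 and Ifit2, described with the interferon genes below. Iigp1, an interferon-inducible GTPase, stood at 884 CPM in control and 122 in cKO, 7.22-fold (6.22 to 8.42) lower, and Ifi214 at 29.3 and 3.89 CPM (7.54-fold lower, 3.29 to 21.3). Ptges, the inducible prostaglandin E synthase, stood at 153 and 32.4 CPM (4.71-fold lower, 3.49 to 6.46), and was detected in 13.5% and 15% of the cells. Its log2 ratio was -0.82 in place of -2.22 with cells thinned to 2000 UMIs, and the call was lost. Mmp19, a matrix metalloproteinase, stood at 870.5 and 252 CPM (3.45-fold lower, 3.1 to 3.86), and was detected in 49.3% and 48.3% of the cells. Its level in cell-free RNA was 157 and 531 CPM, in cKO above that of the macrophages. Kitl, the ligand of the receptor Kit on mast cells and germ cells, stood at 262 and 68.7 CPM (3.81-fold lower, 3.1 to 4.73) and was detected in 56.1% and 27.5% of the cells. Clba1 fell from 73.9 to 3.89 CPM, 19-fold (8.56 to 52.5), and from 40.4% to 5% of the cells. The apolipoprotein gene Apoc2 stood at 32.3 and 2.59 CPM (12.5-fold lower, 4.67 to 46.9), the cytochrome P450 gene Cyp4f18 at 42.1 and 5.83 CPM (7.21-fold lower, 3.65 to 16.2) and the serpin gene Serpina3f at 49.7 and 8.42 CPM (5.9-fold lower, 3.32 to 11.4). Saa3, an acute-phase serum amyloid, stood at 278 and 51.2 CPM (5.43-fold lower, 4.29 to 6.95), but its UMIs came from 15 control and 3 cKO cells. Without members that had at least 3 UMIs of another type's markers its log2 ratio was 0.028 in place of -2.43.

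**Figure D2:**
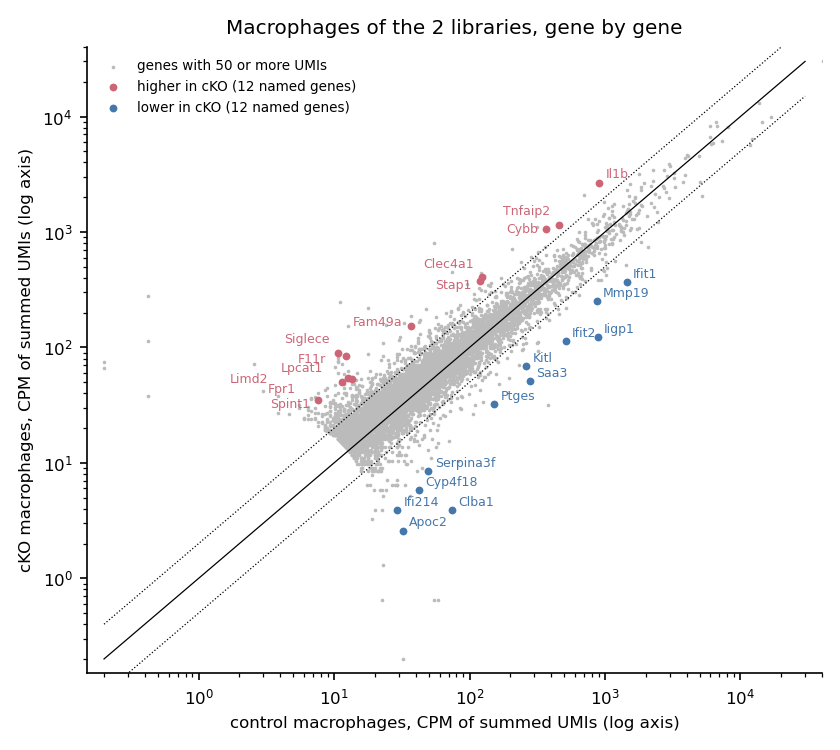
CPM of each tested gene in control macrophages (x) and cKO macrophages (y), both on log axes, in grey, with the 12 named rises in red and the 12 named falls in blue, a solid line at equal level and dotted lines at 2-fold. A level of 0 is drawn at 0.2 CPM; Il1b lies above the 2-fold line at 909 and 2677 CPM and Iigp1 below it at 884 and 122 CPM.

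Gene lists of macrophage functions were compared by the number of called genes and the median log2 ratio, read against the 6.55% and 2.49% of all tested genes and their median of 0.17. Over the lists 54 genes were called, 26 higher and 28 lower. With the 1 cell holding most UMIs of the gene left out in each library, 49 of the 54 stayed past the limits, and Cd55, Cd40, Cd9, Bhlhe40 and Lyve1 did not. Under TMM scaling 46 stayed, the exceptions being C3, Cd55, Cd40, Il1a, Mmp14, Bhlhe40, Fosb and Nr4a1. Without the members that had at least 20 UMIs of another type's markers 42 stayed, and Cd55, Cd36, Cxcl10, Ccl22, Cd9, Timp3, Cebpa, Bhlhe40, Lyve1, Top2a, Ube2c and Fosb did not. Without those that had at least 3, which left 124 control and 59 cKO macrophages, 32 stayed. There the calls of C3, Cfb, Gas6, Cd80, Cd40, Il6, Nos2, Plin2, Blvrb, Pdgfc, Clec10a and Mki67 were lost as well, while those of Cd9 and Fosb were kept. Some of these genes then had fewer than 50 UMIs and could no longer be called, Cd80 among them.

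Cell-free RNA differed in the same direction as the macrophages for part of the called list genes. Among the rises it held Cd80 at 9.7 and 34.1 CPM, Ccl22 at 36.1 and 318 CPM, Timp3 at 42.3 and 147 CPM and Vcan at 26.8 and 103 CPM, and Cd55 at 58.2 and 78.3 CPM, Bhlhe40 at 244 and 274 CPM, Fosb at 233 and 365 CPM and Nr4a1 at 143 and 193 CPM. Among the falls it held Cfb at 159 and 5.69 CPM, Hbegf at 147 and 51.6 CPM and Usp18 at 58.2 and 6.56 CPM. Further examples were Il1b at 110 and 217 CPM among the rises, and Cxcl10 at 211 and 40.7 CPM among the falls. Isg15 (387 and 42.9 CPM), Iigp1 (52 and 10.9 CPM) and Retnla (24.8 and 5.25 CPM) were lower there too. The values of Il6, Klf2 and Tsc22d3 are given with these genes. With cell-free RNA subtracted at 5% of UMIs all 54 calls stayed, and at the rate of epithelial secreted genes without C3 those of Cd36 and Nr4a1 were lost. The rate with C3, given with the interferon genes, ended more calls, those of Cfb, Cd55, Cd36, Timp3, Bhlhe40, Fosb, Nr4a1, Usp18, Cxcl10 and Isg15 among the genes named here. The rises among them turned direction, with log2 ratios of -4.66 for Cd55, -4.37 for Timp3, -6.65 for Bhlhe40, -6.95 for Fosb and -6.14 for Nr4a1.

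**Figure D3:**
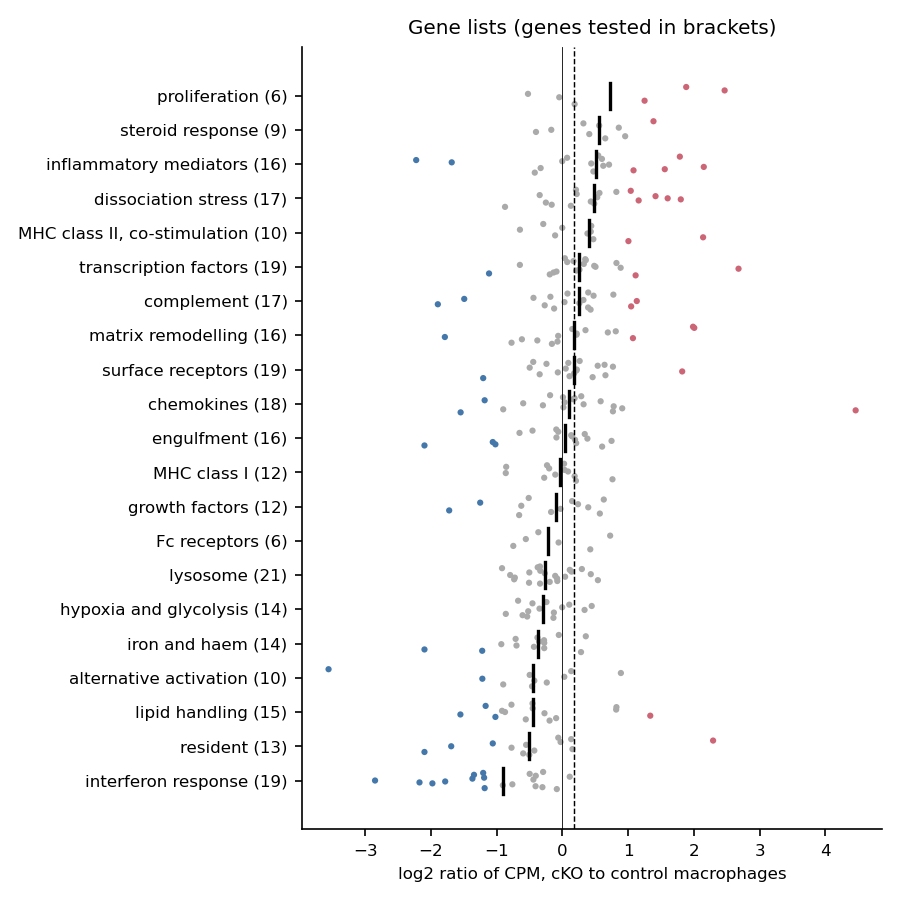
Log2 ratio (cKO over control) of every tested gene in each list, 1 point per gene, red for genes called higher, blue for lower and grey for neither, with a black bar at each list's median and a dashed line at 0.17, the median of all tested genes. The interferon list has its median at -0.90 with 9 blue points and no red ones, and the proliferation list has the highest median, 0.72, from 6 genes.

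Cytokines and mediators of inflammation were divided. Of 16 tested genes 4 rose and 2 fell (median log2 ratio 0.51). Beside Il1b, its relative Il1a stood at 65.4 and 139 CPM (2.12-fold, 1.71 to 2.62). Its log2 ratio of 1.08 was 0.50 by the mean of per-cell CPM and 0.22 with cells thinned to 2000 UMIs, short of the limits in both. Tnf, the gene of tumour necrosis factor, stood at 205 and 707 CPM, 3.45-fold (3.1 to 3.85) higher. A single cKO cell held 38.8% of the Tnf UMIs, and without the top cell of each library the ratio was 2.27-fold. Il6 stood at 48 and 214 CPM (4.45-fold, 3.59 to 5.56), and its level in cell-free RNA was 120.2 and 221 CPM. Its log2 ratio was 0.17 in place of 2.15 without members that had at least 3 UMIs of another type's markers. The falls were Ptges and Nos2, the inducible nitric oxide synthase, which stood at 19.5 and 5.83 CPM with all of its cKO UMIs in 1 cell. The most abundant genes of the list were not called. Il1rn, the antagonist of the interleukin-1 receptor, stood at 3877 and 3084 CPM, Cd14, the co-receptor for bacterial lipopolysaccharide, at 3310.3 and 2475 CPM, and Ptgs2, the inducible cyclooxygenase, at 2244 and 3406 CPM. The feedback inhibitor Nfkbia stood at 836 and 1287 CPM.

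Of 18 tested chemokine genes, which attract other leukocytes, 1 rose and 2 fell (median 0.10, which is below 0 under TMM scaling). They include Pf4, a gene of the rule, and the median was 0.16 without it. The neutrophil attractants Cxcl2 and Cxcl3 stood at 8130.4 and 8184 CPM and 2278 and 2780.3 CPM, and Ccl4 at 3218 and 3253 CPM. Ccl2 and Ccl7, attractants of monocytes, stood at 1534 and 2614 CPM and 1848 and 2311 CPM, ratios of 1.7 (1.63 to 1.78) and 1.25 (1.2 to 1.31), and Ccl3 at 975 and 1834 CPM, a ratio of 1.88 (1.78 to 1.99). These lay under the 2-fold limit. Ccl12 fell from 317 to 108 CPM, 2.93-fold (2.47 to 3.49), and Ccl8, another monocyte attractant, stood at 1282 and 848 CPM. Ccl22 was called higher (11 and 248 CPM), but 37.4% of its cKO UMIs came from the cell with lymphatic markers, and its log2 ratio of 4.46 was 3.88 without that cell, 0.18 without members that had at least 20 UMIs of another type's markers and 3.52 without those that had at least 3. It is also a gene of activated dendritic cells.

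Interferon-response genes, which are switched on by type I or type II interferon and act against viruses and intracellular microbes, were lower as a list. Of 19 tested genes none rose and 9 fell, with a median log2 ratio of -0.90. Rsad2, the antiviral enzyme viperin, stood at 5233 CPM in control and 2062 in cKO, 2.54-fold (2.44 to 2.64) lower. Ifit1, Ifit2 and Ifit3, which bind viral RNA or its partners, stood at 1447 and 367 CPM, 512 and 113 CPM and 319 and 92.7 CPM, and were 3.94-fold (3.6 to 4.31), 4.52-fold (3.85 to 5.33) and 3.45-fold (2.88 to 4.15) lower. Isg15, a ubiquitin-like protein, stood at 883 and 387 CPM (2.28-fold lower, 2.08 to 2.5), and Usp18, which removes it from its targets, at 136 and 59 CPM (2.31-fold lower, 1.83 to 2.95). Among genes that respond strongly to interferon gamma, Iigp1 and Irgm1 (245 and 94.6 CPM, 2.59-fold lower, 2.15 to 3.12) and the chemokine Cxcl10 (1849 and 815 CPM, 2.27-fold lower, 2.13 to 2.42) fell. Cxcl10 had a log2 ratio of -0.63 without members that had at least 20 UMIs of another type's markers. The other 10 did not pass. Among these the transcription factor Irf7 had a ratio of 0.736 (0.607 to 0.889), Oasl2 of 0.755 (0.655 to 0.868), Oas1a of 1.08 (0.683 to 1.68), Bst2 of 0.943 (0.841 to 1.06) and Cxcl9 of 0.809 (0.632 to 1.03). Gbp2, Zbp1, Ifi44 and Ifi204 had ratios of 0.753, 0.815, 0.589 and 0.534.

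The promoters of 3 of the genes that fell are shown with their matches to GAAA, any 2 bases and GAAA again, the core of the interferon-stimulated response element. The sequences are the 250 bases before each start, from RefSeq on GRCm38.p6, searched on both strands, with matched letters in capitals. Ifit1 (chr19:34640639-34640888, plus strand) has 2 matches with their nearest bases 76 and 95 bases before the start, Ifit3 (chr19:34583279-34583528, plus strand) has 2 at 113 and 147, and Isg15 (chr4:156200819-156201068, minus strand) has 3 that overlap, at 57, 63 and 69.
Ifit1: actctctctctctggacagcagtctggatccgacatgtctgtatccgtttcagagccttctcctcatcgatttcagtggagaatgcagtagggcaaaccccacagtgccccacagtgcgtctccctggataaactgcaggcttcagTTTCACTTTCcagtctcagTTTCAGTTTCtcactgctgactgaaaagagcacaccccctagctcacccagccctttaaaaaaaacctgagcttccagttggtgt
Ifit3: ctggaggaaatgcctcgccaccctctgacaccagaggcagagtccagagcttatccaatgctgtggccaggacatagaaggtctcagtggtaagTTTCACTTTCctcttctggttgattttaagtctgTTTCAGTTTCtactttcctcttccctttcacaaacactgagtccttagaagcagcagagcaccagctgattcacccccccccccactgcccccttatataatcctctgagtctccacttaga
Isg15: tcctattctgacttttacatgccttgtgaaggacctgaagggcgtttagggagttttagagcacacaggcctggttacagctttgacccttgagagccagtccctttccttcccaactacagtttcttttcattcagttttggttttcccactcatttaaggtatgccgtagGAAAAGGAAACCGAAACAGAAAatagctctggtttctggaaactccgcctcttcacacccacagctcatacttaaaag

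The motif occurs in 936 of 27025 genes' windows of this length (3.46%) and in 9 of the 14 interferon genes with an entry, namely Ifit1, Ifit3, Isg15, Rsad2, Oas1a, Cxcl10, Gbp2, Irgm1 and Bst2. Of these, Ifit1, Ifit3, Isg15, Rsad2, Cxcl10 and Irgm1 were lower in cKO macrophages, and Oas1a, Gbp2 and Bst2 were not called. Ifit2 was lower and has no match in this window.

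The same genes were compared in dendritic cells and in stromal cells of the 2 libraries. Dendritic cells (123 in control and 187 in cKO) were cells with at least 2 UMIs of Flt3, Ccr7 and Ccl22, at least 10 of H2-Aa, H2-Ab1 and H2-Eb1, fewer than 5 C1q UMIs and no Epcam or Cd3e. Stromal cells (449 and 1476) were cells with at least 10 UMIs of Col1a1, Col1a2 and Col3a1, the chains of fibrillar collagen, and the same limits on C1q, Epcam and Cd3e. The interferon list summed to 13748 and 5713 CPM in macrophages, 2.41-fold lower in cKO (2.35 to 2.46). It summed to 10102 and 987 CPM in dendritic cells (10.2-fold, 9.82 to 10.7) and 1787 and 441 CPM in stromal cells (4.05-fold, 3.95 to 4.17). All 3 cell types were lower in the cKO library, and macrophages kept the highest cKO level. Ifit1 was 3.94-fold (3.6 to 4.31) lower in macrophages, 55.5-fold (43 to 72.7) in dendritic cells (1204 and 21.7 CPM) and 117-fold (83.4 to 169) in stromal cells (151 and 1.29 CPM). Rsad2 was 2.54-fold (2.44 to 2.64) lower in macrophages, 48.1-fold (39.4 to 59.2) in dendritic cells and 88.9-fold (68.3 to 118) in stromal cells. The macrophages' share of all cell UMIs of a gene was 24% and 69.7% for Ifit1, 14.5% and 77.3% for Ifit3 and 47.9% and 87.8% for Rsad2 in control and cKO. Cell-free RNA held Ifit1 at 306 and 14 CPM and Rsad2 at 407 and 49 CPM, so the cell-free level moved in the same direction. With cell-free RNA subtracted at 5% of UMIs, or at the rate of epithelial secreted genes without C3, the 9 calls in macrophages stayed, with list medians of -0.90 and -0.83. With C3 among those genes, which put the cell-free part at 3.94% of control and 64.9% of cKO UMIs, the median was -0.063 and 3 calls stayed, Ifit1, Ifit2 and Iigp1. Ifit3, Isg15, Rsad2, Usp18, Cxcl10 and Irgm1 then had log2 ratios of -0.79, -0.27, -0.36, -0.30, -0.22 and -0.62, and 1 gene of the list was called higher. With 1 library per group, the difference between cell types was not tested.

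**Figure D4:**
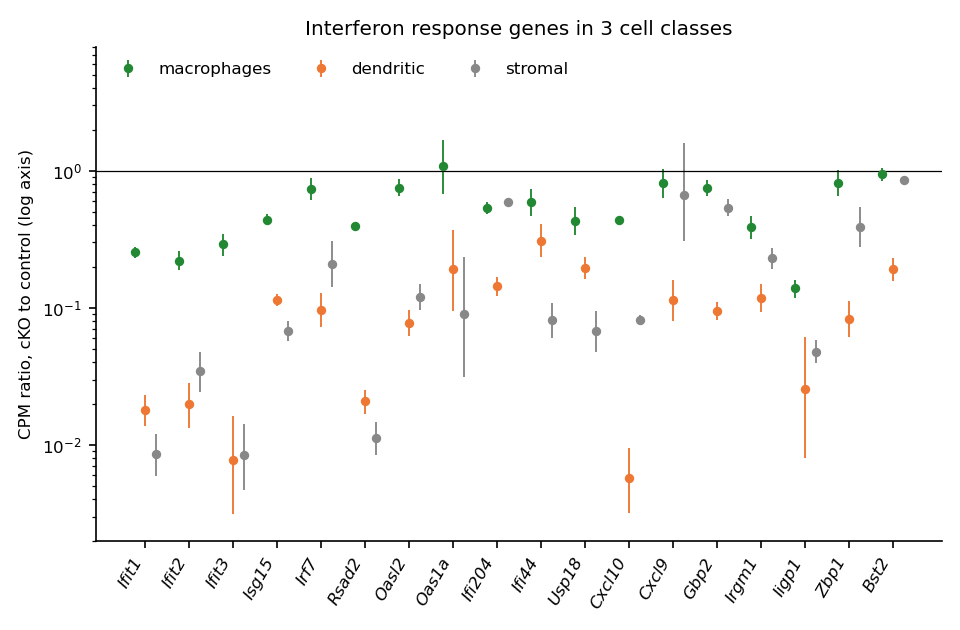
Ratio of cKO to control CPM (log axis) of interferon-response genes in macrophages, dendritic cells and stromal cells, with exact 95% intervals for counting error and a line at 1. Ifit1 lies at 0.254 in macrophages, 0.018 in dendritic cells and 0.00854 in stromal cells.

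Interferon-response RNA was unevenly spread over the macrophages. After each cell was thinned at random to 2000 UMIs, with 16 control and 7 cKO members below that depth left out, a control macrophage had a median of 4 list UMIs (quartiles 1 and 37, highest 247). A cKO macrophage had a median of 2 (quartiles 0 and 7, highest 144). At least 10 list UMIs were found in 38.6% (32 to 45.6) of control and 21.2% (14.1 to 29.9) of cKO macrophages. In dendritic cells the shares were 43.9% (35 to 53.1) and 4.32% (1.89 to 8.34), and in stromal cells 6.74% (4.37 to 9.87) and 0.069% (0.00175 to 0.384).

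Few genes of antigen presentation were called. Of 10 tested genes of MHC class II presentation and co-stimulation 2 rose and none fell (median 0.41). Both rises were in co-stimulatory genes, and none of the 6 class II genes tested, H2-Aa, H2-Ab1, H2-Eb1, H2-DMa, H2-DMb1 and Cd74, was called. The invariant chain gene Cd74 stood at 5941 and 8237 CPM (1.39-fold, 1.35 to 1.42), and the chains H2-Aa, H2-Ab1 and H2-Eb1 at 2987 and 3892 CPM, 1948 and 2629 CPM and 1512 and 2051 CPM, all under the 2-fold limit. The co-stimulatory molecules activate T cells together with the antigen. Cd80 rose from 11.5 to 51.2 CPM (4.46-fold, 2.85 to 7.19), and Cd40 stood at 92.6 and 186 CPM (2.01-fold, 1.68 to 2.41), or 1.58-fold without the top cell of each library. Without members that had at least 3 UMIs of another type's markers the Cd40 log2 ratio was 0.16. After thinning, UMIs of this list per cell were 25 (quartiles 11.5 and 41) in control and 26 (quartiles 10 and 55) in cKO, so the medians were close and the upper quartile was higher in cKO. Of 12 MHC class I genes none was called (median -0.04), with B2m at 4015 and 4633 CPM and H2-K1 at 2175 and 2476 CPM.

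In the complement list 2 of 17 tested genes rose and 2 fell (median 0.26). C1qa, C1qb, C1qc and C3ar1 are among the 17 and are part of the rule, and over the other 13 genes the counts were the same and the median 0.26. C4b, a component of the classical pathway that acts just after C1q, fell from 126 to 33.7 CPM (3.74-fold, 2.78 to 5.13), and Cfb, factor B of the alternative pathway, from 84.5 to 29.8 (2.84-fold, 2.05 to 4.0). With cells thinned to 2000 UMIs the C4b log2 ratio was -1.06 in place of -1.89, still past the limits. Without members that had at least 3 UMIs of another type's markers the log2 ratio of Cfb was -0.83. C3, on which all pathways converge, stood at 140.2 and 289.6 CPM (2.07-fold, 1.79 to 2.39) in the macrophages and at 777 and 214 CPM in cell-free RNA. Cd55, a membrane protein that protects cells from complement, was called higher (18.3 and 40.2 CPM), with a log2 ratio of -0.50 without members that had at least 20 UMIs of another type's markers. C5ar1, the receptor of fragment C5a, stood at 532 and 637 CPM and was not called. Of 6 Fc receptor genes, which bind antibody, none was called (median -0.21). The high-affinity receptor Fcgr1 stood at 238 and 142 CPM and the signalling chain Fcer1g at 872 and 1170.2 CPM.

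Among 16 engulfment genes none rose and 3 fell (median 0.04, below 0 under TMM scaling). Cd36, a scavenger receptor that also takes up fatty acids, fell from 2446 to 1208 CPM, 2.03-fold (1.92 to 2.14). That value lies at the limit: without the deepest cKO cell the log2 ratio was -0.92, under 2-fold. Cd163, the receptor for haemoglobin complexes, stood at 28.9 and 6.48 CPM (4.46-fold lower, 2.28 to 9.71), and Gas6, which bridges dying cells to the receptors Mertk and Axl, at 115 and 55.1 CPM (2.09-fold lower, 1.63 to 2.7). With cells thinned to 2000 UMIs the Gas6 log2 ratio was -0.38 in place of -1.06, and its call was lost. The mannose receptor Mrc1 (641 and 704 CPM), the scavenger receptor Msr1 (375 and 475 CPM) and the lipid-sensing receptor Trem2 (74.8 and 54.4 CPM) were not called.

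None of 21 lysosome genes was called, and their median was -0.27. The protease Ctsb stood at 6034 and 5723 CPM, Ctsd at 1792 and 1078 CPM and Ctsl at 1737 and 1052 CPM, and Lgmn at 1367 and 1679 CPM. Of 15 lipid-handling genes 1 rose and 3 fell (median -0.45). Plin2, which coats lipid droplets, stood at 638 and 284 CPM (2.25-fold lower, 2.02 to 2.51) and Fabp4, a fatty acid carrier, at 42.5 and 14.3 CPM (2.98-fold lower, 1.86 to 4.97), and Cd36 was the third. Without members that had at least 3 UMIs of another type's markers the Plin2 log2 ratio was -0.53. Apoe, the apolipoprotein by which macrophages export cholesterol, stood at 6269.6 and 5872 CPM, and Lgals3 at 4991 and 2727 CPM. The tetraspanin Cd9 was called higher (138 and 348 CPM), but 1 cKO cell held 42.8% of its UMIs and the ratio was 1.7-fold without the top cell of each library. Of 14 iron and haem genes 2 fell (median -0.37), namely Cd163 and Blvrb, a biliverdin reductase (249 and 107 CPM, 2.33-fold lower, 1.96 to 2.79). Hmox1, haem oxygenase, stood at 12204 and 6413 CPM, a ratio of 0.525 (0.514 to 0.538), just short of the limit, and the ferritin chains Fth1 and Ftl1 stood at 40796 and 30236 CPM and 14519.8 and 8954 CPM. Per cell thinned to 2000 UMIs the iron list had a median of 140 (quartiles 100.5 and 188) UMIs in control and 90 (quartiles 60 and 132) in cKO.

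Of 13 genes of resident macrophages 1 rose and 3 fell (median -0.50). The falls were Cd163, Gas6 and Fcna, a ficolin (53.1 and 16.2 CPM, 3.28-fold lower, 2.12 to 5.26). F13a1, coagulation factor XIII, stood at 331 and 194 CPM, the folate receptor Folr2 at 176 and 119.9 CPM and Mrc1 and Ccl8 as above, none past the limits. Lyve1 was called higher (17.8 and 88.1 CPM), but 1 cKO cell, that with lymphatic markers, held most of its UMIs: without it 30 UMIs were left in cKO beside 42 in control, a log2 ratio of 0.23. Of 10 genes of alternative activation, the state induced by interleukin-4, 2 fell (median -0.44). Retnla, a secreted resistin-like protein, fell from 377 to 31.7 CPM, 11.9-fold (8.9 to 16.2), with 25.6% and 46.9% of its UMIs in 1 cell of each library. It was found in 16 of 223 control and 5 of 120 cKO members. Clec10a, a lectin for galactose-type sugars, stood at 110.5 and 47.3 CPM (2.34-fold lower, 1.79 to 3.07), with a log2 ratio of -0.60 without members that had at least 3 UMIs of another type's markers.

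Of 12 growth factor genes 2 fell (median -0.10): Hbegf, a ligand of the epidermal growth factor receptor, from 232 to 70.0 CPM (3.31-fold, 2.69 to 4.11), and Pdgfc from 88.4 to 36.9 (2.39-fold, 1.78 to 3.27). The Pdgfc log2 ratio was -0.50 without members that had at least 3 UMIs of another type's markers. Vegfa, the main driver of vessel growth, stood at 345 and 534 CPM and was not called. Of 16 matrix remodelling genes 3 rose and 1, Mmp19, fell (median 0.18, below 0 under TMM scaling). The membrane-bound collagenase Mmp14 stood at 317 and 668 CPM (2.11-fold, 1.91 to 2.32) and the proteoglycan Vcan at 30.6 and 122 CPM (3.98-fold, 3.02 to 5.3). With cells thinned to 2000 UMIs the Vcan log2 ratio was 0.98 in place of 1.99, and its call was lost. Timp3, an inhibitor of metalloproteinases, was called higher (14.9 and 60.3 CPM) and had a log2 ratio of 0.11 without members that had at least 20 UMIs of another type's markers and 2.79 without those that had at least 3, where its UMIs were few. Thbs1, thrombospondin, stood at 1796 and 3154 CPM, a ratio of 1.76 (1.68 to 1.83), and Mmp13 at 680.2 and 444 CPM.

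Of 19 transcription factors 2 rose and 1 fell (median 0.26). Klf2, which restrains inflammatory activation, rose from 24.2 to 156 CPM (6.45-fold, 4.81 to 8.77), with 48.5 and 112 CPM in cell-free RNA. Bhlhe40 stood at 74.8 and 162 CPM, and its log2 ratio was -0.60 without members that had at least 20 UMIs of another type's markers. Cebpa, a regulator of the myeloid lineage, stood at 162 and 74.5 CPM (2.17-fold lower, 1.76 to 2.7), with a log2 ratio of -0.93 without the same cells. The Cebpa log2 ratio was -0.68 without members that had at least 3 such UMIs and -0.66 by the mean of per-cell CPM. It was -0.54 with cells thinned to 2000 UMIs and -0.42 under the cell-free subtraction with C3. Cebpb and Maf, regulators of macrophage activation and identity, were not called, at 2345 and 2137 CPM and 618 and 864 CPM. Of 19 surface receptors 1 rose and 1 fell (median 0.18, below 0 under TMM scaling, and 0.20 without Csf1r, a gene of the rule). Cx3cr1, the fractalkine receptor, rose from 9.77 to 35 CPM (3.58-fold, 2.16 to 6.11), and the chemokine receptor Ccr1 fell from 142 to 61.6 (2.31-fold, 1.84 to 2.94). Sirpa, which receives the signal that spares healthy cells from engulfment, stood at 231 and 394 CPM.

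Of 17 genes that respond to tissue dissociation and heat 5 rose and none fell (median 0.48). The heat shock genes Hspa1a and Hspa1b stood at 314 and 1093 CPM and 694 and 2107 CPM (3.49-fold (3.2 to 3.81) and 3.04-fold (2.86 to 3.22)), 1 cKO cell holding 48.5% and 35.9% of them, and at 2.44-fold and 2.39-fold without the top cell of each library. The immediate early genes Ier2, Fosb and Nr4a1 stood at 55.2 and 148 CPM, 89.2 and 199.6 CPM and 51 and 105 CPM, and Junb at 1174 and 1736 CPM, not called. The only log2 ratios of the list below 0 were those of Ier3, Dnajb1, Egr1 and Atf3. They were -0.34, -0.16, -0.25 and -0.87, none called, with Ier3 at 1382 and 1088 CPM. Fosb had a log2 ratio of 0.86 without members that had at least 20 UMIs of another type's markers. Several inflammatory genes, Il1b and Tnf among them, are also induced by dissociation, and the part of the digestion in their difference was not tested. Of 9 steroid-response genes 1 rose, the glucocorticoid-induced Tsc22d3 (36.1 and 94.6 CPM, 2.62-fold, 1.99 to 3.46), with a list median of 0.56. Tsc22d3 stood at 31 and 74.4 CPM in cell-free RNA and at 27.1 and 57 CPM in the cells that were not members, so it was higher in cKO there too. Of 6 proliferation genes tested 3, Mki67, Top2a and Ube2c, were called higher (median 0.72), but their direction turned without members that had at least 3 UMIs of another type's markers, with log2 ratios of -0.08, -2.50 and -1.12. Without those that had at least 20 it did not turn, with log2 ratios of 1.58, 3.10 and 3.70, where Top2a and Ube2c had too few UMIs to be called. Mki67 stood at 15.7 and 37.6 CPM and Top2a at 10.6 and 59.6 CPM, with 64% and 56.5% of the Top2a UMIs in 1 cell of each library, and Pcna stood at 324 and 314 CPM. None of 14 hypoxia and glycolysis genes was called (median -0.29), with Pkm at 994 and 725 CPM and Gapdh at 542 and 496 CPM.

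How many macrophages carried each gene was compared after thinning to 2000 UMIs, which left 207 control and 113 cKO members. The same shares were taken in stromal cells as a background for free RNA. Il1b was found in 24.2% (18.5 to 30.6) of control and 48.7% (39.2 to 58.3) of cKO macrophages, against 1.4% and 1.03% of stromal cells, and without thinning in 33.6% and 60% of macrophages. Tnf was found in 25.6% (19.8 to 32.1) of control and 42.5% (33.2 to 52.1) of cKO, and in 0 of 356 (which allows up to 0.843%) of control and 0.138% of cKO stromal cells. Without thinning the Tnf shares were 55.6% and 60%, closer together than at equal depth. Cybb was found in 35.3% of control and 62.8% of cKO, Stap1 in 14.5% of control and 42.5% of cKO, Clec4a1 in 21.7% of control and 42.5% of cKO and Siglece in 1.93% of control and 13.3% of cKO. Tnfaip2 was found in 43.5% of control and 77% of cKO, with 17.1% and 15.2% of stromal cells. Mmp14 was found in 35.3% of control and 69.9% of cKO, but also in 50% and 45.4% of stromal cells, which express it. In the other direction, F13a1 was found in 46.9% (39.9 to 53.9) of control and 25.7% (17.9 to 34.7) of cKO (cKO minus control was -8.79 percentage points with cells thinned to 1000 UMIs), Cd36 in 78.3% (72 to 83.7) of control and 51.3% (41.7 to 60.8) of cKO, Kitl in 35.3% of control and 8.85% of cKO and Clba1 in 13% of control and 0.885% of cKO. C4b was found in 18.4% of control and 8.85% of cKO, with 3.93% and 3.1% of stromal cells. Mrc1 was found in a like share of both, 62.3% and 61.9%. The monocyte genes Ccr2 and Ly6c2 were found in few members, 5.31% and 6.19% for Ccr2, and for Ly6c2 3.38% of control and 0 of 113 (which allows up to 2.65%) of cKO members, and Cx3cr1 in 1.93% and 6.19%. The upper limits given for shares of 0 are on cells with a UMI at this depth, not on cells expressing the gene. Of the transcription factors, Maf was found in 40.6% of control and 61.1% of cKO.

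**Figure D5:**
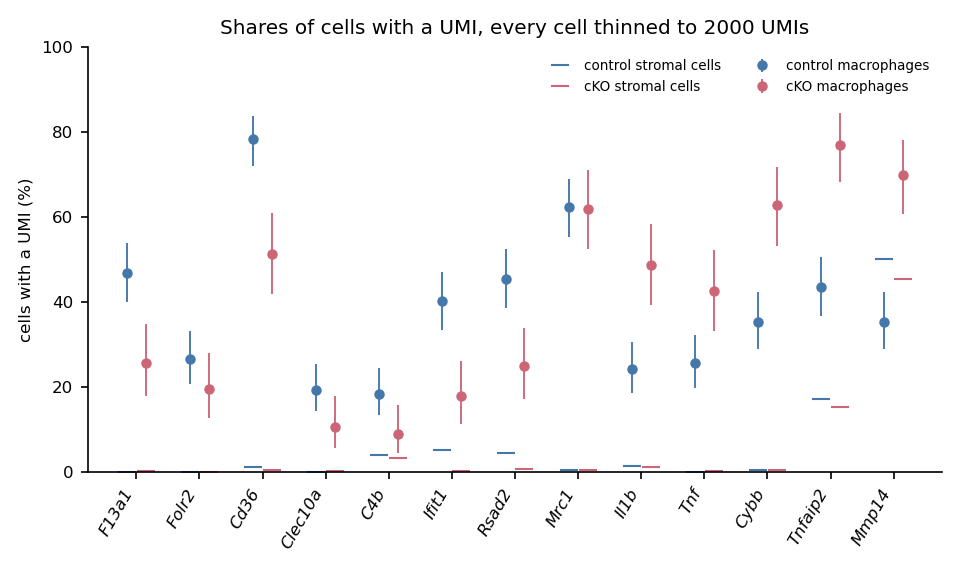
Percent of macrophages with at least 1 UMI of each gene after thinning to 2000 UMIs, control and cKO side by side, with exact 95% intervals, and dashes for the share in stromal cells of the same library. Il1b was found in 24.2% of control and 48.7% of cKO macrophages, and F13a1 in 46.9% and 25.7%.

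Within each library the macrophages differed among themselves. Shares and UMIs in this comparison are per cell thinned to 2000 UMIs unless said otherwise. Il1b was found in 16.4% of Folr2-positive and 27% of Folr2-negative control cells, and in 18.2% of Folr2-positive and 56% of Folr2-negative cKO cells. Folr2 was found in 37.5% of Ccl8-positive and 13.7% of Ccl8-negative control cells and in 34.7% of Ccl8-positive and 7.81% of Ccl8-negative cKO cells. In both libraries the share with Folr2 was the higher one among Ccl8-positive cells, and the share with Il1b the lower one among Folr2-positive cells. Without thinning both orders were the same, with wider Folr2 detection. Il1b was then found in 29.9% of Folr2-positive and 39.3% of Folr2-negative control cells and in 50% of Folr2-positive and 68.2% of Folr2-negative cKO cells, and Folr2 in 74.7% of Ccl8-positive and 21.3% of Ccl8-negative control cells and in 64.8% of Ccl8-positive and 16.3% of Ccl8-negative cKO cells. H2-Aa, H2-Ab1, H2-Eb1 and Cd74 together had medians of 28 UMIs in control cells with Il1b and 22 in those without, and of 37 and 14 in cKO. The C1q sum was a median of 6 UMIs in control cells with Folr2 and 5 in those without, and of 10 and 6 in cKO. These are descriptions of cells from 1 library each, and 22 of 113 cKO cells had Folr2 after thinning, against 54 of 120 without it.

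The macrophages were last set beside the dendritic cells of the same libraries, which also present antigen. Which cell type is most like the macrophages was not measured. The comparison is within a library, and the genes named here are not part of either rule. Of 6209 genes with at least 50 UMIs over both cell types in each library, 843 were at least 2-fold higher in macrophages in both libraries and 531 at least 2-fold lower. Apoe was 205-fold in control and 209.7-fold in cKO higher in macrophages. C5ar1, with 1 UMI in control dendritic cells and none in cKO ones, was 712-fold (128 to 28140.5) in control and at least 606-fold in cKO higher, and F13a1, with none in either, at least 148-fold in control and at least 184-fold in cKO. Cd38, an enzyme that consumes NAD, was 437-fold (78.2 to 17279) in control and 225-fold in cKO higher, and the chemokine Ccl8 1714-fold (307 to 67726) in control and 220.2-fold in cKO. The Fc receptor-like gene Fcrls, the fatty acid receptor Gpr84 and Aoah, which inactivates lipopolysaccharide, had at most 2 UMIs in the dendritic cells of a library against 272, 266 and 258 in control and 190, 165 and 274 in cKO macrophages. On the dendritic side, the antigen uptake receptor Ly75 was 104-fold in control and 43.2-fold in cKO higher in dendritic cells, the Rab GTPase-activating protein gene Tbc1d4 42.2-fold in control and 30.4-fold in cKO, and Timd4, a receptor for phosphatidylserine otherwise known from resident macrophages, 47.4-fold in control and 36.7-fold in cKO. Ccl17, the partner of Ccl22, was at least 48.1-fold in control and 44.4-fold in cKO higher in dendritic cells, Scin at least 100.3-fold in control and 127-fold in cKO and Apol7c at least 158-fold in control and 27-fold in cKO. Havcr1 was 28.2-fold in control and 64.6-fold (17.7 to 536) in cKO higher, and Adam23, Mreg, Strip2 and the class II gene H2-Eb2 had at most 4 UMIs in the macrophages of a library. Il1b, in contrast to its rise in macrophages, was found in 64.2% of control and 45.4% of cKO dendritic cells after thinning, and the difference between the 2 cell types was not tested.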

How the data were processed

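Per the labels' protocols, uteri were minced, digested with collagenase and DNaseI for 5 hours at 37 °C and freed of red cells, and single cells were profiled by droplet RNA sequencing of 3-prime ends. The deposited files hold raw UMI counts per gene and barcode. The submitters' processing notes give Cell Ranger 6.1.1 and build mm10, while the file headers name Cell Ranger 4. The deposited matrices held 45035801 UMIs in control and 57145553 in cKO, from 3653 and 4950 cells by the limits of the rule. Members and gene lists were chosen with earlier results of these data known.

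Counts of the members were summed per library in Python 3.11.15 and expressed as CPM of their total. Ratios have exact conditional binomial intervals and shares exact Clopper-Pearson ones (scipy 1.17.1), at 95%. PCR duplicates are removed by the UMIs, and the intervals do not cover differences between animals. Log2 ratios add 0.5 UMI. A count of 0 is treated as allowing 3, and folds against 0 are lower bounds on that basis, per library. A gene was called with at least 50 UMIs in all, a 2-fold ratio and an interval leaving out 1. Ratios were checked on counts simulated from the model that the intervals assume. That check leaves out uneven spread of UMIs over cells. TMM factors came from edgeR 4.0.16 under R 4.3.3. Scrublet (scanpy 1.11.5) scores over 0.25, a limit set by hand, marked 42 control and 60 cKO cells, among them 6 and 2 members, and were used only in an alternative. With 1 library per group nothing was tested and no replicate could be left out.

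Named genes are the 12 rises and 12 falls that came first when ranked by the interval limit nearer to 1. These had at least 50 UMIs and 10 cells in the higher library, at most 25% of UMIs in 1 cell, and at least 2 times the cell-free level. Excluded were predicted genes without a name and those of mitochondria, ribosomal proteins, haemoglobins and immunoglobulins. To these were added the genes with most UMIs of each list, the called genes of a list (named after their values were seen), and the 12 genes on each side of the comparison with dendritic cells. Mx1, Clec7a, Aldoa and Ccl21a were not analysed here, and some list genes are counted but not reported here by name. Alternatives on gene minimum, mitochondrial limit, C1q minimum, doublets, other types' markers, weighting, thinning, cell-free RNA, scaling and UMI minimum were tried. Of these, leaving out the deepest cKO cell, the members with at least 20 UMIs of another type's markers and the top cell of each gene, and a cell-free rate without C3, were chosen after seeing the data.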

Additional observations from a re-analysis of the deposited data

How the results depend on the processing

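The lower share of macrophages in cKO kept its direction in all alternatives tried, with a log2 ratio of -1.33, -1.01 with a C1q minimum of 20 UMIs, and -1.51 to -1.17 in the others. The count of genes higher in cKO, 441, was 247 without members with at least 3 UMIs of another type's markers (of the original calls 89 stayed), 668 by the mean of per-cell CPM, which has no interval, 102 with every cell thinned to 2000 UMIs, 260 under TMM scaling, 928 with a minimum of 10 UMIs and 128 with 200. The count of lower genes, 168, was 68 when thinned, 284 under TMM, 330 with 10 UMIs and 68 with 200. It was 1804 when cell-free RNA was subtracted at the rate of epithelial secreted genes. That rate came to 3.94% of UMIs in control and 64.9% in cKO, where C3 made up most of those genes in the macrophages. Without C3 the rates were 1.26% and 6.98% and the counts 421 and 184. Saa3 turned from a log2 ratio of -2.43 to 0.028 without members with at least 3 UMIs of another type's markers, which were 44.4% of control and 50.8% of cKO members. The proliferation list's median, 0.72, ranged from -1.15 to 1.43. Of the other list medians, none moved 1.5-fold or more except under the C3-based subtraction. Smaller moves took those of chemokines, engulfment, matrix remodelling and surface receptors below 0 under TMM scaling. C4b, Ifit1, Ifit2, Iigp1, Il1b, Tnf, Hbegf, Mmp19, Klf2, Retnla, Tsc22d3, Hspa1a and Hspa1b stayed past the limits in all 17 alternatives. The fewer UMIs after thinning and the higher minimum reduce the genes that can be called; the cause of the other shifts was not tested. No paired analysis was possible because each group is 1 library, and for the same reason no replicate could be left out.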

Other observations

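Il7r, the receptor for interleukin-7 known mainly from lymphocytes, was found in the macrophages of both libraries, in 18.4% (13.3 to 24.3) of control and 24.8% (17.1 to 33.8) of cKO members after thinning to 2000 UMIs. Cd3d and Cd3g had no UMI there, and Cd3e none by the rule. The 11 T or NK markers, Il7r included, summed to 265 and 305 CPM in these cells. In stromal cells the shares with Il7r were 0.843% and 0.483%.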
